A study of Homo sapiens with 8 samples.

Results

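The 9 genes described here encode enzymes and RNA-processing factors that remove or prevent R-loops: RNASEH1, the 3 subunit genes of RNase H2 (RNASEH2A, RNASEH2B and RNASEH2C), AQR, DHX9, TOP1, DDX5 and THOC1. They were chosen by symbol, and all 9 were found among the 19952 gene symbols listed in each library. RNA was sequenced from 2 human uveal melanoma cell lines, with 2 libraries in each of 4 groups. In 92.1 cells, APOBEC3B (A3B), a cytidine deaminase that acts on single-stranded DNA, was depleted with a short hairpin RNA delivered by lentivirus (shA3B) and compared with shCtrl cells, whose control for RNA sequencing is described in the study's methods as an empty vector. In MEL290 cells, A3B was overexpressed from a lentiviral cDNA with puromycin selection (A3B OE) and compared with the negative control NC. Which hairpin was used, and whether the 2 libraries of a group came from separate cultures, is not given in the sources used here, so p-values measure the spread between these libraries, which may be technical.

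An R-loop is a stretch of RNA paired with one DNA strand, with the other DNA strand left single. RNase H1 cuts the RNA of such a hybrid and works as a single polypeptide, whereas RNase H2 is a complex of a catalytic subunit, A, with the B and C subunits, and it also removes single ribonucleotides left in DNA. Helicases such as DHX9, DDX5 and AQR can unwind hybrids, topoisomerase I relieves the negative supercoiling behind RNA polymerase that favours them, and the THO complex packages the new transcript before it can pair again with its template.

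The values are FPKM (sequenced fragments scaled to transcript length and to the mapped total of the library), a level per length that allows genes to be set side by side. In the direction of the labels, the 2 libraries of a group gave a mean APOBEC3B level of 34.1 ± 2.56 FPKM in shCtrl against 2.18 ± 0.278 in shA3B, and of 2.43 ± 0.341 FPKM in NC against 27.9 ± 0.645 in A3B OE (SD, n = 2 each). A rough depth, read from the lowest FPKM values, lay between 17500000 and 31600000 fragments per library, and the least covered of the 9 genes then had about 222 fragments in a library (RNASEH2A, NC replicate 2). Both lines are labelled uveal melanoma cells. All 8 melanocytic markers checked reached 1 FPKM in every 92.1 library, whereas 1 or 2 of 8 did in MEL290. MITF, a marker of that list, did in all 4 MEL290 libraries, at 13.66 and 19.62 FPKM in NC and 16.38 and 17.48 FPKM in A3B OE cells. TYR, which encodes tyrosinase, was listed at 0 in all 4 libraries, and the keratins KRT8 and KRT18 were abundant (1289 ± 8.85 and 1275 ± 33.3 FPKM in NC, SD, n = 2). Differences below are log2 fold changes on the log2(FPKM + 1) scale, and a gene was called at a Benjamini-Hochberg adjusted p under 0.05 in limma across all genes tested.

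In MEL290 cells with A3B overexpressed, RNASEH1 mRNA fell, RNASEH2A and RNASEH2B mRNA rose, and the other 6 genes, RNASEH2C among them, were not called. Of the 9 genes, 2 were called higher, where the share over all 11611 genes was 10.3%, and 1 was called lower, where that share was 7.49%. The A3B OE and NC libraries did not overlap for 7 of the 9 genes, against 61.3% of all genes, so that count is near the background.

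RNASEH1 was at 18.46 and 17.39 FPKM in the NC libraries and 12.39 and 13.63 FPKM after A3B overexpression. Both A3B OE libraries were below both NC libraries, and the means were 17.9 ± 0.757 and 13.0 ± 0.877 FPKM (SD, n = 2 each). The log2 fold change was -0.43 (standard error 0.10, 95% confidence interval -0.69 to -0.18, adjusted p = 0.037). This call needed all 4 libraries: with any one of them left out the log2 fold change stayed between -0.50 and -0.37, and RNASEH1 was not called. It was also lost without the filter on low FPKM (adjusted p = 0.078).

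RNASEH2A, the catalytic subunit of RNase H2, showed the largest change among the 9 genes. It was at 11.75 and 9.265 FPKM in NC and at 19.94 and 17.05 FPKM in A3B OE cells, a ratio of means of 1.76. The log2 fold change was 0.77 (standard error 0.15, 95% confidence interval 0.41 to 1.12, adjusted p = 0.019). RNASEH2B, which joins the complex to PCNA, was at 11.41 and 9.778 FPKM in NC and at 14.83 and 15.66 FPKM in A3B OE cells, a ratio of means of 1.44. Its log2 fold change was 0.49 (standard error 0.12, 95% confidence interval 0.21 to 0.77, adjusted p = 0.037). For both genes the 2 A3B OE libraries were above the 2 NC libraries.

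RNASEH2C, the third subunit, was at 24.74 and 25.88 FPKM in NC and at 23.1 and 24.16 FPKM in A3B OE cells. Its log2 fold change was -0.10 (95% confidence interval -0.31 to 0.12, adjusted p = 0.5), and both A3B OE libraries were below both NC libraries. The call of RNASEH2A was lost without A3B OE replicate 1 (adjusted p = 0.099) or replicate 2 (adjusted p = 0.062), and that of RNASEH2B without either of these (adjusted p = 0.11 and 0.15) or without NC replicate 2 (adjusted p = 0.12). Without the filter on low FPKM, neither was called (adjusted p = 0.086 for RNASEH2A and 0.092 for RNASEH2B).

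**Figure D1:**
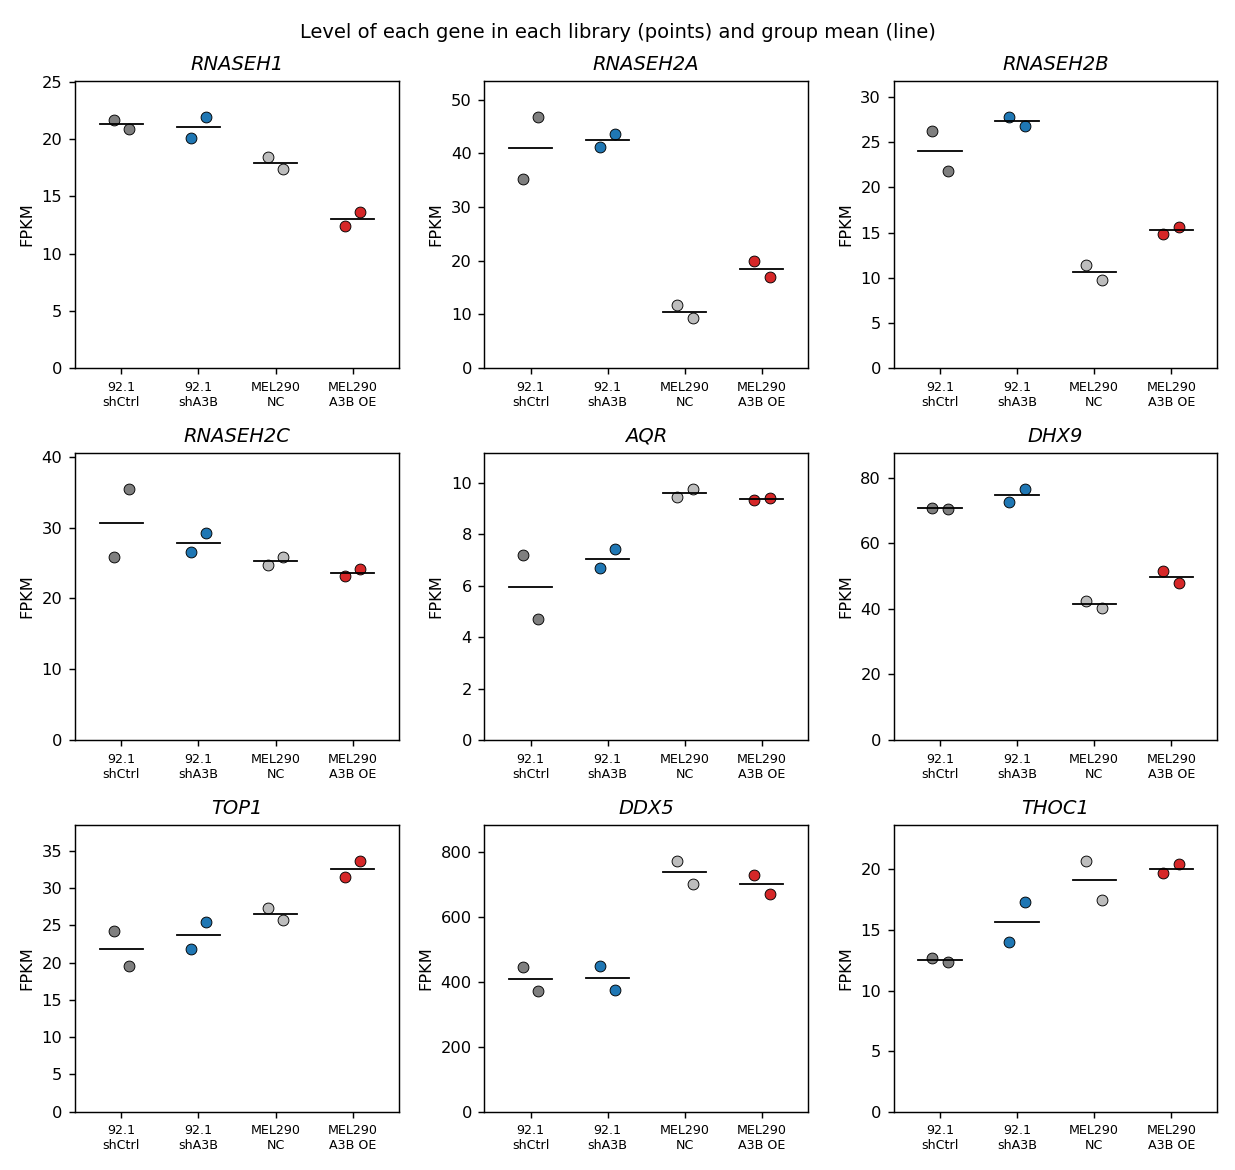
FPKM of the 9 genes (vertical axes, linear from 0) in each of the 8 libraries (points), with a line at each group's mean of 2 libraries. RNASEH1 is lowest in MEL290 A3B OE, at 12.39 and 13.63 FPKM, while RNASEH2A and RNASEH2B are lowest in MEL290 NC.

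Proliferation markers rose in the same libraries as RNASEH2A and RNASEH2B. All 10 of 10 markers on a list were called higher in A3B OE cells, against 10.3% of all genes tested (median log2 fold change 0.84, against 0.0041 over all genes tested). The list was chosen with earlier results of these data known, so this count is a description. The summed level of the markers was 253 and 247 FPKM in NC and 473 and 454 FPKM in A3B OE cells, with no marker listed at 0. MKI67, a nuclear antigen of cycling cells, rose by 1.39 on the log2 scale, CCNA2 (cyclin A2) by 1.06, CCNB1 (cyclin B1) by 1.03 and MCM2, part of the replicative helicase, by 0.96. The summed level of 6 epithelial markers, nearly all from KRT8 and KRT18, was lower, at 2548 and 2584 FPKM in NC and 1897 and 1680 FPKM in A3B OE cells, with KRT5 listed at 0 in all 4 libraries and EPCAM in both NC libraries. Not every marker of that list was lower: CDH1 (E-cadherin) was at 0.180 and 0.393 FPKM in NC and at 0.301 and 2.13 FPKM in A3B OE cells, and these groups overlapped. In bulk RNA, fewer cells of a kind and less RNA per cell cannot be told apart. The part of either marker group in the RNase H values was not tested.

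The balance of the RNase H genes is given as ratios. These restate the changes of the single genes in the same libraries and are not a further result. The ratio of RNASEH1 to RNASEH2A FPKM was 1.57 and 1.88 in the NC libraries and 0.621 and 0.799 in the A3B OE libraries, so that the order of the 2 genes was reversed. The mean ratio in A3B OE cells was 41.2% of that in NC cells. Against the summed FPKM of the 3 RNase H2 subunits, RNASEH1 stood at 0.385 and 0.387 in NC and at 0.214 and 0.240 in A3B OE cells. With 2 libraries against 2, the exact two-sided permutation test gave p = 0.33 for each ratio, the smallest p it allows. In 92.1 cells the ratio of RNASEH1 to RNASEH2A was 0.615 and 0.446 in shCtrl and 0.488 and 0.503 in shA3B cells, and the groups overlapped (exact permutation p = 1.0).

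Within RNase H2, RNASEH2A stood at 0.475 and 0.358 of the level of RNASEH2C in NC cells and at 0.863 and 0.706 in A3B OE cells. RNASEH2B stood at 0.461 and 0.378 of RNASEH2C in NC and at 0.642 and 0.648 in A3B OE cells. The exact permutation test again gave its smallest p, 0.33, for both ratios. In 92.1 cells RNASEH2A stood at 1.36 and 1.32 times the level of RNASEH2C in shCtrl and at 1.56 and 1.49 times in shA3B cells. These groups did not overlap either (exact permutation p = 0.33, again the smallest possible). In these libraries the ratio was thus higher in shA3B than in shCtrl and higher in A3B OE than in NC. Taken alone in 92.1, neither gene was called, and the groups overlapped for both (log2 fold change 0.06 for RNASEH2A and -0.12 for RNASEH2C). RNASEH2B stood at 1.01 and 0.616 of RNASEH2C in shCtrl and at 1.05 and 0.917 in shA3B cells, and these groups overlapped (exact permutation p = 0.67).

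**Figure D2:**
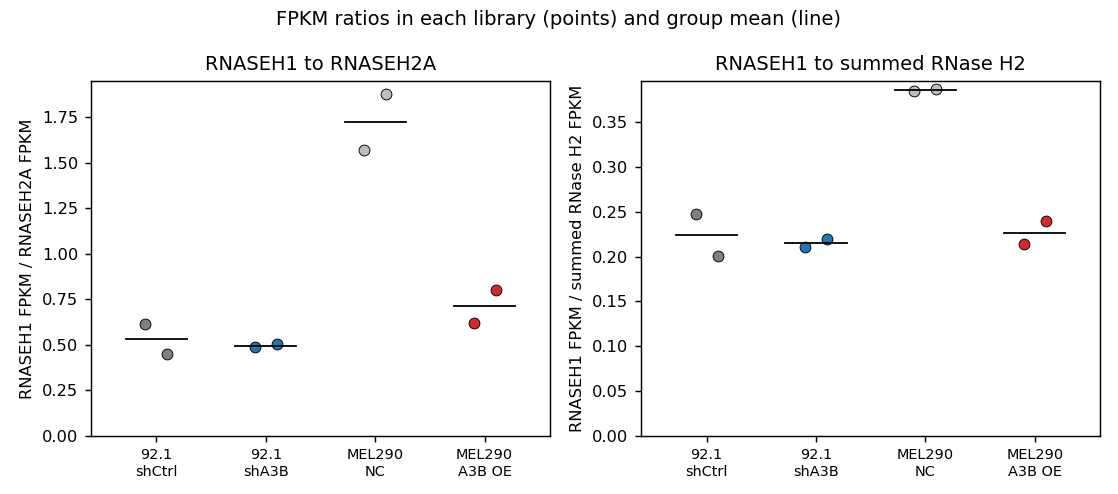
Ratio of RNASEH1 FPKM to RNASEH2A FPKM (left) and to the summed FPKM of the 3 RNase H2 subunits (right), without a unit and on linear axes from 0, in each library (points) with a line at the mean of each group. The NC libraries of MEL290, at 1.57 and 1.88 on the left, lie above the other 6 libraries in both panels.

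None of the helicases among the 9 genes was called in MEL290. DHX9, a helicase that unwinds RNA and RNA-DNA hybrids, was at 42.27 and 40.39 FPKM in NC and at 51.53 and 47.9 FPKM in A3B OE cells. Its log2 fold change was 0.26 (standard error 0.08, adjusted p = 0.079), and it passed the threshold only under upper quartile scaling (adjusted p = 0.048). DDX5, a DEAD-box helicase, was the most abundant of the 9 genes, at 774.5 and 701.3 FPKM in NC and at 729.0 and 672.5 FPKM in A3B OE cells. These groups overlapped, with a log2 fold change of -0.07 (95% confidence interval -0.26 to 0.11). AQR, an intron-binding helicase of the spliceosome, was the least abundant, at 9.448 and 9.775 FPKM in NC and at 9.334 and 9.418 FPKM in A3B OE cells, with a log2 fold change of -0.03 (95% confidence interval -0.29 to 0.23).

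TOP1, which encodes topoisomerase I, was at 27.36 and 25.78 FPKM in NC and at 31.46 and 33.71 FPKM in A3B OE cells. The 2 groups did not overlap, and the difference of 0.28 on the log2 scale (standard error 0.09, adjusted p = 0.078) was not called. THOC1, a subunit of the THO complex, was at 20.73 and 17.51 FPKM in NC and at 19.7 and 20.42 FPKM in A3B OE cells, with a log2 fold change of 0.07 (95% confidence interval -0.20 to 0.34). Here the NC libraries lay on both sides of the A3B OE libraries.

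**Figure D3:**
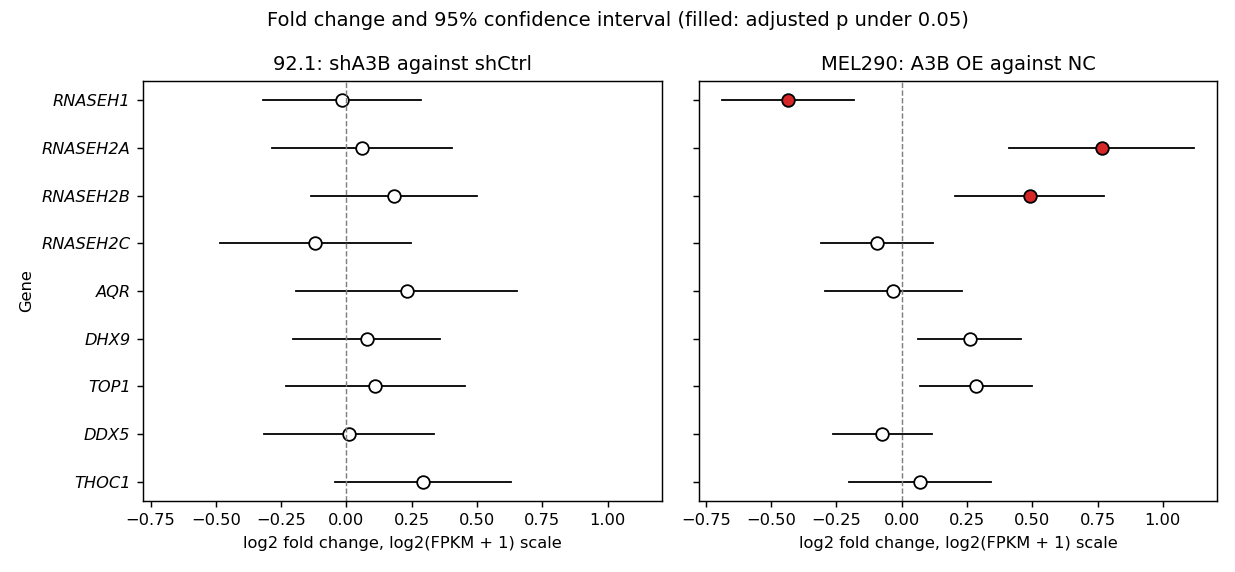
Log2 fold change on the log2(FPKM + 1) scale (horizontal axes) of the 9 genes in 92.1 (left) and MEL290 (right), with 95% confidence intervals from limma as lines; filled points have an adjusted p under 0.05. In MEL290, RNASEH1 lies at -0.43 and RNASEH2A at 0.77, and in 92.1 all 9 intervals include 0.

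In 92.1 cells, depletion of A3B was not accompanied by a called change in any of the 9 genes. Limma called 0 of 9, where 0.00862% of the 11605 genes tested were called (1 gene, APOBEC3B itself) and 336 had an unadjusted p under 0.05. RNASEH1 was at 21.65 and 20.89 FPKM in shCtrl and at 20.1 and 21.93 FPKM in shA3B cells. The groups overlapped, and the 95% confidence interval of the log2 fold change ran from -0.32 to 0.29. RNASEH2A was at 35.22 and 46.78 FPKM in shCtrl and at 41.21 and 43.61 FPKM in shA3B cells, with an interval of -0.28 to 0.41.

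The other log2 fold changes in 92.1 lay between -0.12 (RNASEH2C) and 0.29 (THOC1, unadjusted p = 0.082). For RNASEH2B, DHX9 and THOC1 both shA3B libraries were above both shCtrl libraries, 3 of 9 genes, against 28.6% of all genes whose groups did not overlap. AQR spread widely between the shCtrl libraries, at 7.214 and 4.714 FPKM, and RNASEH2C did too, at 25.88 and 35.48 FPKM. The DDX5 values were nearly the same in both groups, 447.2 and 372.1 FPKM in shCtrl and 450.3 and 374.4 FPKM in shA3B cells.

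The levels of the 9 genes were also compared between the lines, where most genes differed. Between the control groups, NC of MEL290 and shCtrl of 92.1, 3 of the 9 genes were called higher in MEL290 (background 34.8%) and 3 lower (background 40.1%), so that the 6 called in all are a share below the 74.9% of all genes called. RNASEH2A was lower in MEL290 by 1.86 on the log2 scale (log2 fold change -1.86, adjusted p = 1.3e-05), RNASEH2B by 1.11 (log2 fold change -1.11, adjusted p = 5.5e-05) and DHX9 by 0.76 (log2 fold change -0.76, adjusted p = 6.2e-05). DDX5 was higher in MEL290, with a log2 fold change of 0.85 (adjusted p = 0.00031), as were AQR, with 0.63 (adjusted p = 0.0088), and THOC1, with 0.57 (adjusted p = 0.0039). RNASEH1 (-0.24, adjusted p = 0.067), RNASEH2C (-0.25, adjusted p = 0.15) and TOP1 (0.28, adjusted p = 0.082) were not called. Without shCtrl replicate 1, RNASEH2C (log2 fold change -0.47, adjusted p = 0.0083) and TOP1 (0.43, adjusted p = 0.022) were called too, and with a correction for GC content and length AQR was no longer called (0.23, adjusted p = 0.15) while RNASEH1 was (-0.44, adjusted p = 0.0017). The control vectors and the layout of the deposited files also differed between the lines, so these cannot be told apart from the line.

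The order of the 9 genes by FPKM also differed between the lines. DDX5 and then DHX9 led in all 4 groups, and AQR was last in all 4. In shCtrl cells, RNASEH2A (41.0 FPKM), RNASEH2C (30.7), RNASEH2B (24.1), TOP1 (21.9) and RNASEH1 (21.3) followed, and each of these overlapped with the next. In NC cells, RNASEH2B (10.6 FPKM) and RNASEH2A (10.5) stood just above AQR (9.61), and both of these steps were within the spread of the libraries. RNASEH1 was sixth in NC, above RNASEH2B without overlap, and eighth in A3B OE cells, below it without overlap. The summed FPKM of the RNase H2 subunits was 95.7 ± 11.8 in shCtrl, 97.6 ± 2.98 in shA3B, 46.4 ± 2.10 in NC and 57.4 ± 0.704 after A3B overexpression (SD, n = 2 each).

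The change with A3B was compared between the lines with limma on the 8 libraries together. The quantity tested was the A3B OE minus NC difference less the shCtrl minus shA3B difference. A3B was overexpressed in MEL290 and depleted in 92.1, so line, method and direction of the perturbation cannot be told apart here. None of the 9 genes was called, where 5.57% of the 12697 genes tested were. The difference was -0.45 for RNASEH1 (95% confidence interval -0.79 to -0.12, adjusted p = 0.12), 0.83 for RNASEH2A (0.30 to 1.36, adjusted p = 0.081) and 0.67 for RNASEH2B (0.27 to 1.07, adjusted p = 0.066) on the log2 scale. The calls in MEL290 are therefore not shown to differ from 92.1 at this threshold. With the correction for GC content and length, RNASEH2A (adjusted p = 0.036) and RNASEH2B (adjusted p = 0.047) passed it, and RNASEH2B did under upper quartile scaling (adjusted p = 0.047). The mean of the A3B-high minus A3B-low change over both lines was also called for 0 of 9 genes (background 4.4%), with -0.21 for RNASEH1 (adjusted p = 0.16) and 0.35 for RNASEH2A (adjusted p = 0.14).

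Other genes of the same pathways were read from lists chosen with earlier results of these data known, so their counts are descriptions. These counts stand against the shares of all genes tested in MEL290, 10.3% called higher and 7.49% called lower. Of 17 other helicases linked to R-loops, 6 were called higher and 0 lower in MEL290 A3B OE cells, and the list's median was 0.06. PIF1, which unwinds G-quadruplexes and hybrids, rose by 1.30 on the log2 scale, BLM by 0.99, BRIP1 (FANCJ) by 0.92 and DDX39A by 0.70. Of 7 other THO and TREX subunits, 2 rose, THOC6 by 0.97 and THOC2 by 0.34. Of the 4 partners of AQR 0 were called, the largest log2 fold change being that of ISY1 (0.40, adjusted p = 0.07).

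Among 6 genes for other topoisomerases and their partner TDRD3, 1 rose, a share near the 10.3% of all genes called higher: TOP2A, the topoisomerase of dividing cells, by 1.14. Of 13 other factors that prevent or process R-loops, 4 rose (background 10.3%), BRCA1 by 0.97, FANCA by 0.87, and the splicing factors SRSF2 by 0.48 and SRSF1 by 0.39. The partners of RNase H2 in ribonucleotide excision repair had 5 of 9 genes called higher (background 10.3%) and 0 lower (background 7.49%), and the list's median was 0.42 on the log2 scale. The DNA polymerase delta subunit POLD1 rose by 0.99, the ligase LIG1 by 0.87, the flap endonuclease FEN1 by 0.57 and the sliding clamp PCNA by 0.41. In each of these lists with a called gene, the called genes were higher, as among the proliferation markers. RNASEH1 was called lower, as were 7.49% of all genes tested. Whether the changes in these lists go with proliferation was not tested. In 92.1 cells limma called 0 genes of each list.

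**Figure D4:**
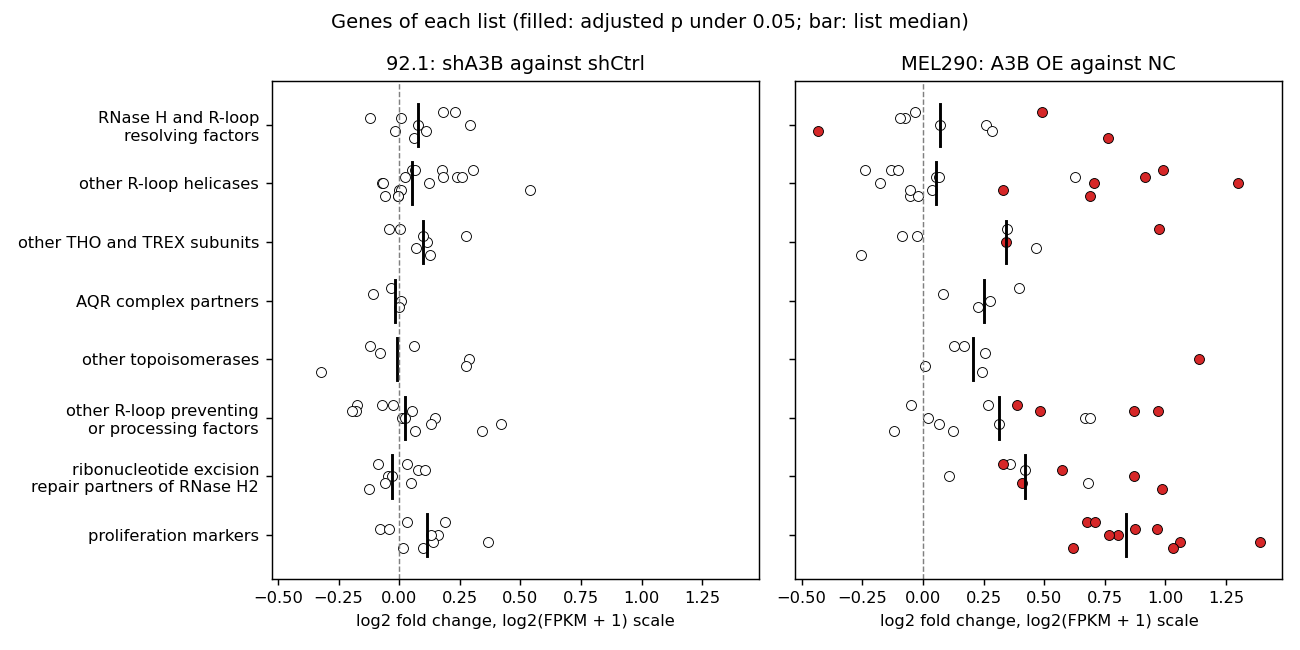
Log2 fold change on the log2(FPKM + 1) scale (horizontal axes) of each gene (points, spread vertically for sight) in 8 lists, in 92.1 (left) and MEL290 (right), with a bar at each list's median and filled points for an adjusted p under 0.05. In MEL290 the only filled point below 0 is RNASEH1, and all 10 proliferation markers are filled above 0.

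The genes whose levels followed RNASEH1 most closely over the 8 libraries, by Pearson's r of log2(FPKM + 1), were ATP1B3 (r = 0.984), PRXL2A (0.984), FERMT1 (0.982), TDG (0.982) and SLC16A9 (0.980). The 8 libraries share 2 cell lines, so these are descriptions of 1 pattern, high in 92.1, lower in NC and lowest in A3B OE cells. TDG, a thymine DNA glycosylase that removes thymine or deaminated cytosine opposite guanine, was at 24.7 ± 1.48 in shCtrl, 25.1 ± 2.20 in shA3B, 18.2 ± 1.10 in NC and 12.4 ± 1.12 FPKM after A3B overexpression (SD, n = 2 each). SLC16A9 was listed at 0 in both A3B OE libraries. Over the same libraries, r with RNASEH1 was 0.66 for RNASEH2C, 0.62 for DHX9, 0.57 for RNASEH2B and 0.56 for RNASEH2A, and it was negative for AQR (-0.64), THOC1 (-0.70), DDX5 (-0.76) and TOP1 (-0.82). The positive values ranked only between 4340 (RNASEH2C) and 5025 (RNASEH2A) among 12697 genes. Within MEL290, RNASEH2A and RNASEH2B rose where RNASEH1 fell.

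The 3 called genes lie on different chromosomes. In GRCh38 with GENCODE 44 annotation, RNASEH1 lies at chr2:3541430-3558333 on the minus strand, RNASEH2A at chr19:12806584-12813640 on the plus strand and RNASEH2B at chr13:50909747-51024120 on the plus strand. Of the 3 nearest tested genes on each side, none was called around RNASEH1 or RNASEH2B. On the higher side of RNASEH1, ID2 and KIDINS220 lie far from it, starting at positions 8678845 and 8721081. Beside RNASEH2A, JUNB was called higher (log2 fold change 0.58) and PRDX2 lower (log2 fold change -0.37). Over all genes tested in MEL290, 17.8% were called in either direction. The library kit does not mark strand, so reads of overlapping genes cannot be told apart. In GENCODE 44, RNASEH1 lies within the protein-coding gene ENSG00000286905 on its own strand. RNASEH2B is overlapped on the opposite strand by RNASEH2B-AS1 and GUCY1B2. None of these overlapping genes is among the gene symbols listed for the libraries, so no values under these names were available. RNASEH2A overlaps THSD8 and HOOK2. THSD8 was under 0.3 FPKM in all 4 MEL290 libraries but at 11.03 FPKM in both shCtrl libraries, and HOOK2 was not called in MEL290 (log2 fold change 0.14, adjusted p = 0.42). RNASEH2C overlaps KAT5 on the opposite strand, which was at 10.99 and 13.16 FPKM in NC and at 22.51 and 16.36 FPKM in A3B OE cells (adjusted p = 0.053).

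The stretches upstream of a transcript start of each of the 3 called genes are shown so that the differently changed RNase H genes can be compared. Each is the 250 bases before a RefSeq transcript start in GRCh38.p14, in the direction of the gene, with the letters CCAAT on either strand (ATTGG on the other) in capitals. They lie at chr2:3558334-3558583 (minus strand, RNASEH1), chr19:12806334-12806583 (plus strand, RNASEH2A) and chr13:50909541-50909790 (plus strand, RNASEH2B, the second of the 2 starts listed). The window of the first RNASEH2B start ends at 50909677, so part of the stretch shown lies past that start. Part of it also lies within the gene as given by GENCODE 44, which begins at 50909747.
RNASEH1: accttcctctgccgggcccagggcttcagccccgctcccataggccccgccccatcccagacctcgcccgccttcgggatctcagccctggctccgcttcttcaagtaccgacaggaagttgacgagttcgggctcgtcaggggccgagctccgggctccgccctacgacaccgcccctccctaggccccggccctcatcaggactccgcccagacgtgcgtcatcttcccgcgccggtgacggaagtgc
RNASEH2A: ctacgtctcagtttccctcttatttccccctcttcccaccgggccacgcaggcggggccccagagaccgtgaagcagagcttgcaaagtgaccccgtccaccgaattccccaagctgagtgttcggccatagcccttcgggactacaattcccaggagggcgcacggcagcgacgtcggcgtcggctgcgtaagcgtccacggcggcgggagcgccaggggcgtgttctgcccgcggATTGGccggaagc
RNASEH2B: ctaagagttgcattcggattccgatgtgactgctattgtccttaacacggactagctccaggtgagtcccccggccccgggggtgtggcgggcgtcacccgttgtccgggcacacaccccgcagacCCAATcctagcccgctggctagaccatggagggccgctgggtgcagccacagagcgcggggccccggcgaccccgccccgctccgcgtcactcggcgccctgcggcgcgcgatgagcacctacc

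CCAAT is part of the RNASEH2A window, 13 bases before the start, and of the RNASEH2B window, 124 bases before it, and it is not in the RNASEH1 window. The letters occur in 32.0% of 35116 promoter windows of the same length, and in 5 of the 12 windows of the 9 genes (of RNASEH2A, both starts of RNASEH2B, DHX9 and 1 start of DDX5). Both RNASEH2B windows overlap, and the site 124 bases before the second start is also that 11 bases before the first. It is therefore counted in both. Letters of E2F sites (TTTCCCGC, TTTGGCGC, TTTCGCGC or TTTGCCGC on either strand) occur in 2.79% of all windows and in 0 of these 12. The CRE letters TGACGTCA occur in 1.65% of all windows and in 1 of the 12, that of THOC1, 25 bases before the start. These motifs were picked after the windows of the 9 genes had been read, and the matches are descriptions of letters.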

How the data were processed

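Total RNA of 8 libraries was sequenced as paired-end reads of 150 bases. The deposited FPKM values were made by the authors with Cufflinks over genes of Ensembl release 75, from STAR alignments to GRCh38; tool versions are not given in the sources used here. That release dates from the previous genome build, so the gene models behind the FPKM values are uncertain, and the coordinates and overlaps given are those of GENCODE 44. Cuffdiff, the authors' test, starts from reads and was not run. The scale of all tests was log2(FPKM + 1), genes with at least 1 FPKM in at least 2 libraries of a fit were kept, and limma 3.58.1 (lmFit, eBayes with a trend) in R 4.3.3 was fitted to each line alone and, for comparisons between lines, to all 8 libraries, with Benjamini-Hochberg adjustment. Depth was inferred only roughly from low FPKM values, and no counting error is given.

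The limma step was tested on simulated data with the spread drawn in 3 ways. The first, from each gene's own spread, recovered fewer large changes than the criterion set for it. The second, from moderated spreads, met that criterion but gave more false calls than the nominal rate. The third, drawn from limma's own prior and added after both had been seen, met the criterion at about the nominal rate. It is the model the test assumes, so it checks the code and not the error rate in these libraries. With 2 libraries per group that rate could not be settled here, and calls near the threshold, such as those of the RNase H genes, should be read with this limit.

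The members, lists and motifs were chosen with earlier results of these data known. Named besides the 9 genes were APOBEC3B, at most 4 called genes per list by size of change (1 where none was called), the 5 genes most correlated with RNASEH1, the 3 nearest tested genes on each side of called members, and overlapping genes. MITF, KRT8, KRT18, TYR, KRT5, EPCAM, CDH1 and COL1A1 were named after their values were seen. Fibroblast and immune markers were also summed, and immune markers stayed under 1 FPKM. Fibroblast markers gave 6.16 to 8.33 FPKM in 92.1 and 27.2 to 41.0 FPKM in MEL290. The MEL290 sum was nearly all COL1A1, at 26.92 and 27.48 FPKM in NC and 40.67 and 28.99 FPKM in A3B OE cells. Only 1 of 6 fibroblast markers reached 1 FPKM in each MEL290 library, against 2 of 6 in each 92.1 library. Of the 19952 symbols, 19033 matched GENCODE 44. The alternatives were quantile or upper quartile scaling, no trend in limma, other filters, a pseudocount of 0.1, the replicate block, a GC and length correction, 1 fit over all libraries, and each library left out. Libraries with RNASEH1 overexpression were not analysed here.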

Additional observations from a re-analysis of the deposited data

Results flagged for a closer look

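The A3B OE minus NC change in MEL290 less the shCtrl minus shA3B change in 92.1 was past the threshold for none of the 9 genes and for 12 of the list genes named beside them (limma over all 8 libraries, log2 scale; 5.57% of all genes passed). These list genes were named for large changes in MEL290, which favours a larger change there, so their number and direction are a description. Line, method and direction of the perturbation also cannot be told apart in this difference. Over whole lists, 9 of 10 proliferation markers and 4 of 9 repair partners of RNase H2 passed. Among helicases and export factors the difference was 1.04 for BLM (adjusted p = 0.025), 1.16 for BRIP1 (adjusted p = 0.03) and 0.98 for THOC6 (adjusted p = 0.02). It was 1.43 for TOP2A (adjusted p = 0.0066) and 1.03 for BRCA1 (adjusted p = 0.045). Among the repair partners of RNase H2 it was 0.86 for POLD1 (adjusted p = 0.04), 0.83 for LIG1 (adjusted p = 0.04), 0.65 for FEN1 (adjusted p = 0.043) and 0.45 for PCNA (adjusted p = 0.046). Among proliferation markers it was 1.20 for CCNA2 (adjusted p = 0.0068), 1.13 for CCNB1 (adjusted p = 0.0049) and 0.92 for MCM2 (adjusted p = 0.015). The same difference for RNASEH2A was 0.83 (adjusted p = 0.081).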

How the results depend on the processing

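The 3 calls in MEL290 (RNASEH1, RNASEH2A and RNASEH2B) held without the trend, under quantile normalization, upper quartile scaling, the stricter filter, a pseudocount of 0.1, the GC and length correction and 1 fit of all libraries. Without the filter on low FPKM 0 of the 9 genes were called, and the whole table then had 915 calls against 2065. With the replicate block 1 was called, RNASEH2A (adjusted p = 0.067 for RNASEH1 and 0.063 for RNASEH2B); the labels give no pairing, the deviations of same-numbered libraries correlated with r = -0.03 in MEL290 and 0.19 in 92.1, and the block took the count over all genes from 2065 to 1521 in MEL290 and from 1 to 37 in 92.1, with 0 of the 9 genes called there. With 1 library left out, 0 (either A3B OE library) to 2 (NC replicate 1) were called, with 1 left without NC replicate 2. For the difference between lines, upper quartile scaling called 1 gene (RNASEH2B) and the GC and length correction 2 (RNASEH2A and RNASEH2B), where 0 were called otherwise; the cause was not tested. Signs turned only in values that were not called. In 92.1, RNASEH1 was 0.0153 under upper quartile scaling and DDX5 -0.0674 with the GC and length correction; over both lines RNASEH2C was -0.0039 under quantile normalization and -0.032 with that correction; for the difference between lines DDX5 was 0.0001 under upper quartile scaling. With 1 library left out, log2 values in 92.1 ran from -0.0777 to 0.0427 (RNASEH1), -0.1391 to 0.2605 (RNASEH2A), -0.3389 to 0.1017 (RNASEH2C), -0.0302 to 0.4934 (AQR), -0.039 to 0.2614 (TOP1) and -0.1236 to 0.1423 (DDX5), and THOC1 in MEL290 from -0.0455 to 0.1859. Over both lines they ran from -0.0984 to 0.1218 (RNASEH2C) and -0.108 to 0.0249 (DDX5), and for the difference between lines from -0.4341 to 0.0065 (RNASEH2C), -0.0624 to 0.4612 (AQR) and -0.1973 to 0.0685 (DDX5). Where a group was left with 1 library, that library was assumed to vary like the others. Between the control groups, RNASEH1 was called lower in MEL290 without the filter (-0.24) and with the GC and length correction (-0.44), which also ended the call of AQR (0.23).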
